A study of Mus musculus with 18 samples.

Results

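The genes described here are nuclear genes whose symbols name them as part of respiratory complexes II to V, and the gene of cytochrome c. They were taken by symbol: Sdha to Sdhd for complex II, the Uqcr genes and Cyc1 for complex III, the Cox4i, Cox5, Cox6, Cox7 and Cox8 genes for complex IV, the Atp5 genes from Atp5a to Atp5o for complex V, and Cycs. Subunits with other symbols are not among them. This gave 47 of the 24035 genes named in the deposited count files, of which 4 belong to complex II, 9 to complex III, 18 to complex IV and 15 to complex V, with Cycs as the remaining 1. Ribosome footprints (stretches of mRNA shielded from nuclease by a ribosome) and fragmented mRNA were sequenced from cortical neurons of C57BL/6 mouse embryos. All groups received an MTOR construct by in utero electroporation of the cortex at embryonic day 14 and were sorted at embryonic day 18, so that the control also carries introduced MTOR. The construct was wild type (WT) or bore the amino acid change C1483Y or L2427P, and each of the 6 combinations of assay and construct has 3 libraries. The labels describe no removal of the mouse's own Mtor gene, and name neither the promoter of the construct nor the number of embryos behind a library. They do not say that replicates came from separate embryos either, so p-values measure the spread between these libraries, which may be partly technical.

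Mitochondria make most of a neuron's ATP by oxidative phosphorylation. Complex II (succinate dehydrogenase) passes electrons from succinate to ubiquinone, complex III (the cytochrome bc1 complex) passes them on to cytochrome c, complex IV (cytochrome c oxidase) hands them to oxygen, and complex V (ATP synthase) uses the proton gradient built by complexes I, III and IV to make ATP. Complexes III, IV and V also contain subunits encoded by mitochondrial DNA, which are not among the genes described here. MTOR, a protein kinase, raises protein synthesis when nutrients and growth factors are at hand, and mRNAs that begin with a C followed by a run of pyrimidines (5′ terminal oligopyrimidine or TOP mRNAs) are its best known translational targets.

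Footprint libraries held 7695442 to 34094913 counts on named genes and mRNA libraries 18627076 to 53283035. Levels below are CPM, a library's counts of a gene scaled to 1e+06 counts on named genes, given in the order of replicates 1, 2 and 3. In the third C1483Y footprint library the values are displaced against the gene names after row 5400 of the file, so that library gives values for the 33 Atp5 and Cox genes only. It stayed out of the main tests and entered only alternatives that are named as such. Many abundant genes were absent from single libraries: of the 5000 most abundant genes, 51.6% had no count in mRNA library L2427P 3, 23.2% in mRNA library C1483Y 3 and 16.6% in footprint library WT 1, and 20, 11 and 12 of the 47 genes were at 0 in these libraries. Mtor, the gene electroporated, stood at 730 to 4242 CPM in 8 footprint libraries and 281 to 787 CPM in 9 mRNA libraries, and counts of the construct and of the mouse gene cannot be told apart. The summed level of 7 projection neuron markers (Tubb3, Dcx, Map2, Neurod2, Neurod6, Tbr1 and Bcl11b) was 5017 to 10177 CPM in footprints and 3989 to 6802 CPM in mRNA. Summed markers reached at most 58.5 and 72.7 CPM for endothelial cells, 16.7 and 26.4 CPM for erythroid cells, 189 and 121 CPM for interneurons, 166 and 133 CPM for the oligodendrocyte lineage and 245 and 253 CPM for microglia in footprints and mRNA. Those of progenitors were 653 to 1232 and 184 to 549.9 CPM, and those of astrocytes 344 to 804 and 107 to 882 CPM. Their part in the results was not tested.

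Sequence around the annotated starts is shown first because both mTOR and the nuclear respiratory factors act through short motifs there. A match below is a description of letters and not a site of action. Promoters of 36 of the 47 genes were found in RefSeq (build GRCm38.p6, mm10). A single annotated start per gene was used and other starts were not searched. For some genes, such as Cox5a and Atp5d, it lies inside the annotated gene and not at its outer end. The first 15 transcribed bases follow for Atp5g2 and Uqcrfs1, the 2 of 36 genes (5.56%) whose annotated start is a C with at least 4 pyrimidines after it (capitals), against 2.49% of all 27025 promoters. They are also shown for Atp5e and Cox7c, on which results below turn. In these 2 genes such a run does not begin at the first annotated base but a few bases after it, which was not counted as a match.
Atp5g2, chr15:102671033-102671047, minus strand: CCCTCTCTgtcttct
Uqcrfs1, chr13:30545302-30545316, minus strand: CTCTTCgggccgtcg
Atp5e, chr2:174464087-174464101, minus strand: cccaccccttccgct
Cox7c, chr13:86046781-86046795, minus strand: atcttccctttcggt

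Nuclear respiratory factor 1 (NRF1) binds the promoters of many respiratory chain genes, and GABPA is the DNA-binding subunit of nuclear respiratory factor 2. The letters GCATGCGC of NRF1, on either strand, stood between 250 bases before and 50 bases after the start in 8 of 36 member promoters (22.2%) and in 2.8% of all promoters. CCGGAAG of GABPA stood in 11 of 36 (30.6%) and in 9.12% of all, and AAGATGGCG of YY1 in 1 of 36 (2.78%) and in 1.49%. NRF1 and its reverse complement overlap within the palindrome GCGCATGCGC. The 100 bases before the start of Cycs, Sdhb and Atp5k (NRF1 letters in capitals) and of Uqcrh (GABPA letters in capitals) show how these motifs lie.
Cycs, chr6:50566570-50566669, minus strand: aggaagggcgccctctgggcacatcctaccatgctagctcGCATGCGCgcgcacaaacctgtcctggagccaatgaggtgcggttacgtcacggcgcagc
Sdhb, chr4:140961171-140961270, plus strand: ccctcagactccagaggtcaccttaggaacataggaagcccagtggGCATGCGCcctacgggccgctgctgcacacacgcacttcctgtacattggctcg
Atp5k, chr5:108434400-108434499, minus strand: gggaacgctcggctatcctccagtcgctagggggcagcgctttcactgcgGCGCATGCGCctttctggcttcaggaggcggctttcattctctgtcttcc
Uqcrh, chr4:116075071-116075170, minus strand: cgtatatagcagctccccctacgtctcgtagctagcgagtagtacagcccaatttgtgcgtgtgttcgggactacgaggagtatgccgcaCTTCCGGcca

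The genes of complexes II to V took up a smaller share of the footprints than of the mRNA counts. Together they held 0.724% ± 0.122 (SD, n = 8 libraries) of the footprint counts and 1.36% ± 0.147 (SD, n = 9) of the mRNA counts, and the ranges, 0.504% to 0.905% and 1.11% to 1.57%, did not overlap. Complex V accounted for most of both. Its 15 genes summed to 4026 ± 714 CPM in 9 footprint libraries and 7314 ± 1039 CPM in 9 mRNA libraries, without overlap. Complex IV summed to 1418 ± 420 CPM and 3379 ± 703 CPM (SD, n = 9 each), also without overlap. Complex III overlapped between the assays, at 1139 ± 426 CPM (SD, n = 8) and 2047 ± 381 CPM (SD, n = 9), and so did complex II, at 593 ± 229 CPM (SD, n = 8) and 748 ± 170 CPM (SD, n = 9). The 16 genes of the tricarboxylic acid cycle and pyruvate dehydrogenase, which feed electrons into the chain, ranged from 726 to 2978 CPM in footprints and from 1792 to 2705 CPM in mRNA, so that the mRNA range lay within the footprint range. Shares of counts are relative to each assay's total. The sums were not tested. In such bulk samples fewer cells of a type and less RNA per cell cannot be told apart.

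**Figure D1:**
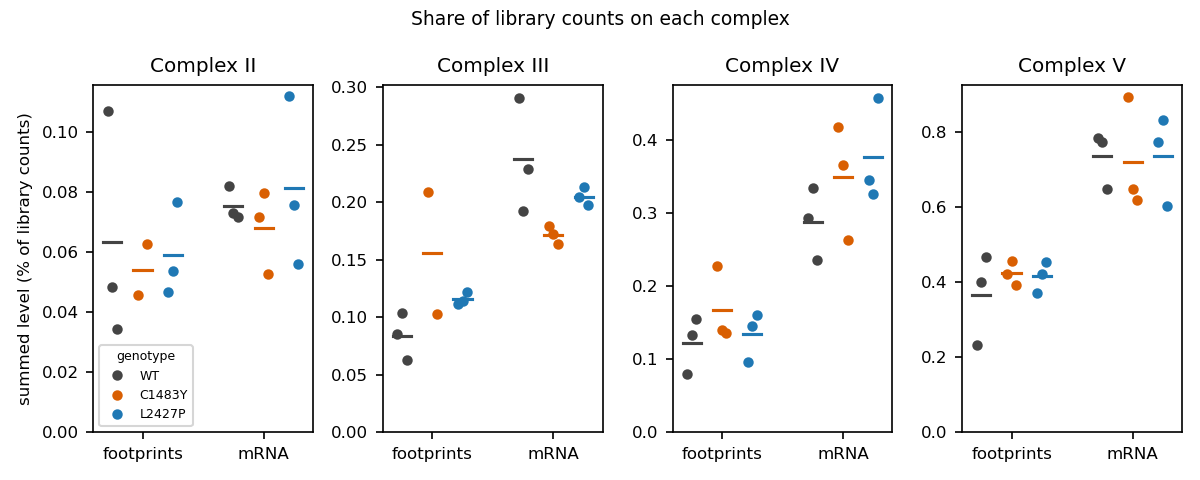
Summed level of the genes of each complex as a percentage of a library's counts (y axis, from 0, with its own scale in each panel) in footprint and mRNA libraries (x axis), coloured by construct; points are libraries and short lines group means. For complexes IV and V all footprint points lie below all mRNA points, whereas those of complexes II and III overlap.

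Most single genes varied widely between libraries. Of the 42 genes with a mean above 1 CPM in either assay, 30 had counts in all 8 footprint libraries and 23 in all 9 mRNA libraries. The coefficient of variation across libraries had a median of 83.3% in footprints and 60.8% in mRNA. Only 1 gene in footprints and 2 in mRNA stayed within a 2-fold range, and Atp5b was among them in both assays. Genes at 0 in 1 library and well above 0 in the other replicates occurred in both assays, so the levels of single genes are given library by library.

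**Figure D2:**
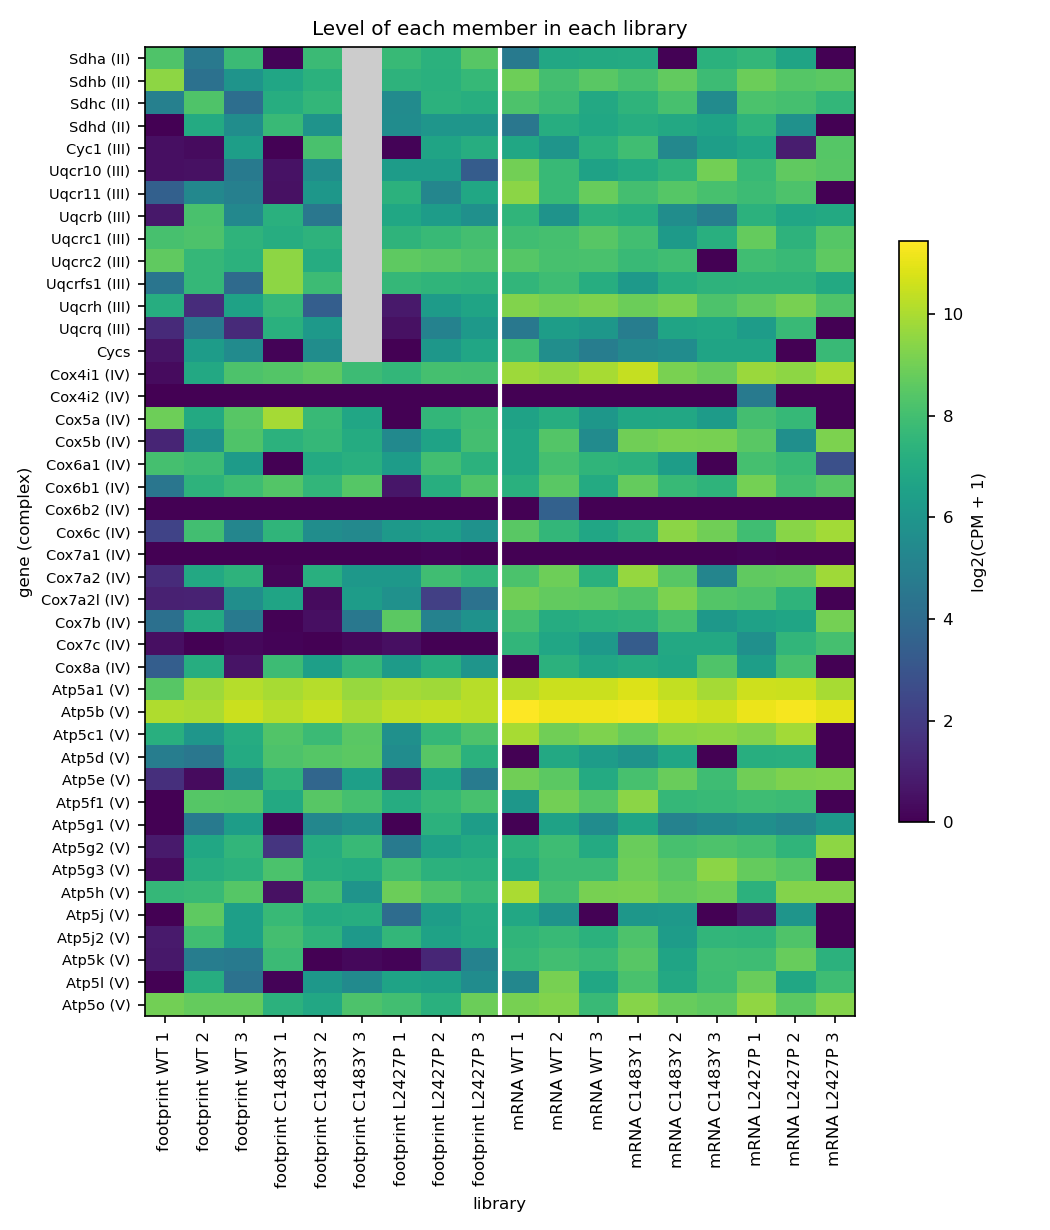
Level of each gene with a count in any library (rows, with its complex) in each library (columns; footprints left of the white line, mRNA right of it), as log2(CPM + 1) in colour; grey marks values not used. Atp5a1 and Atp5b are bright in all libraries, many others drop to 0 in single libraries, and Cox7c is dark in all footprint libraries and present in all mRNA libraries.

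Complex V is described from its catalytic head outward. Atp5b, the catalytic beta subunit, was the steadiest gene of the set. Its footprint level was 1077, 1019 and 1475 CPM in WT, 1178, 1421 and 1018 CPM in C1483Y and 1244, 1336 and 1236 CPM in L2427P. Its mRNA level was 2774, 2271 and 2248 in WT, 2387, 1788 and 1517 in C1483Y and 2168, 2469 and 1981 CPM in L2427P. The constructs overlapped in both assays, and every footprint library lay below every mRNA library. Atp5a1, the alpha subunit that alternates with beta in the head, had footprint levels of 351, 877 and 1153 CPM in WT, 976, 1153 and 827 CPM in C1483Y and 956, 886 and 1172 CPM in L2427P. Its mRNA stood at 1181, 1478 and 1474 in WT, 1827, 1357 and 942 in C1483Y and 1539, 1490.4 and 978 CPM in L2427P. Footprint library WT 1 was low for Atp5a1, and otherwise constructs and assays overlapped.

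The stalk subunits were less even. Atp5c1, the gamma subunit that turns inside the head, had footprint levels of 147, 63.9 and 136 CPM in WT, 324, 221 and 361 CPM in C1483Y and 51.8, 196 and 304 CPM in L2427P, so that C1483Y lay above WT in all libraries. Its mRNA stood at 970.5, 503 and 597 in WT, 436, 686 and 723 in C1483Y and 629, 919 and 0 CPM in L2427P, with 1 library at 0. Atp5d, the delta subunit of the central stalk, also lay above WT in all 3 C1483Y footprint libraries, at 305, 344 and 377 CPM against 27.7, 21.96 and 125 CPM, while L2427P spanned both at 45.9, 355 and 158 CPM. Atp5o, which links head and membrane through the peripheral stalk, went the other way: its footprints stood at 515, 419.8 and 431 CPM in WT, 160.2, 115 and 299 CPM in C1483Y and 250.4, 154 and 465 CPM in L2427P. In mRNA it was at 553, 624 and 215 in WT, 650.1, 442 and 387 in C1483Y and 750.3, 371 and 645 CPM in L2427P. All C1483Y footprint values of Atp5o were below all WT values, and the mRNA values overlapped.

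Atp5e, the small epsilon subunit of the central stalk, had few footprints beside its mRNA. Its footprint level was 1.95, 0.24 and 47.3 CPM in WT, 172, 12.8 and 87.2 CPM in C1483Y and 0.67, 105 and 25.9 CPM in L2427P. Its mRNA level was 489, 371 and 127 in WT, 279, 447 and 236 in C1483Y and 490.1, 604 and 612 CPM in L2427P. The mRNA was present in all libraries and was higher in all 3 L2427P libraries than in all WT libraries, while footprints ranged from under 1 CPM to the low end of the mRNA range. The proton-conducting c subunit is made from 3 genes, Atp5g1, Atp5g2 and Atp5g3, whose mature proteins are identical. Atp5g1 had mRNA levels of 0, 94.7 and 45.8 CPM in WT, 106, 32.2 and 42.4 CPM in C1483Y and 50.1, 39.1 and 67.1 CPM in L2427P. Atp5g2 stood at 163, 239 and 126 in WT, 458, 274 and 301 in C1483Y and 271, 176 and 717 CPM in L2427P, and Atp5g3 at 124, 219 and 219 in WT, 474, 365 and 691 in C1483Y and 422, 339 and 0 CPM in L2427P. For Atp5g2 and Atp5g3 all C1483Y mRNA libraries lay above all WT libraries. Reads that fall in the shared part of related genes could have been split or dropped by the counting, so levels of the 3 genes are uncertain.

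The remaining subunits of complex V described here sit in or near the membrane or the peripheral stalk, and each of them was below 1 CPM in at least 1 library. Atp5f1 ranged from 0 to 351 CPM in footprints and from 0 to 698 CPM in mRNA. Atp5h ranged from 0.42 to 464 CPM in footprints and from 161 to 1012 CPM in mRNA. Atp5j ranged from 0 to 386 CPM in footprints and from 0 to 116 CPM in mRNA. The highest library of Atp5j was a footprint library, and the highest libraries of Atp5f1 and Atp5h were mRNA libraries. Atp5j2 ranged from 0.78 to 259.9 CPM in footprints and from 0 to 313 CPM in mRNA. Atp5k ranged from 0 to 224 CPM in footprints and from 102 to 441 CPM in mRNA. Atp5l ranged from 0 to 137 CPM in footprints and from 38.8 to 543 CPM in mRNA. For these 3 genes too the highest library was an mRNA library.

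Complex IV held genes with far fewer footprints than mRNA and genes with no such gap. Cox4i1, the common form of the regulatory subunit 4, had footprint levels of 0.26, 117 and 307 CPM in WT, 337, 391 and 226 CPM in C1483Y and 190.1, 265 and 259.7 CPM in L2427P. Its mRNA stood at 865, 755 and 974 in WT, 1392, 571 and 452 in C1483Y and 833, 721 and 1027 CPM in L2427P. Every footprint library lay below every mRNA library, and within each assay the constructs overlapped once the third C1483Y footprint library is counted. Cox5a and Cox5b, structural subunits on the matrix side, did not follow each other. Cox5a had footprints at 479, 121 and 349 CPM in WT, 948, 209.7 and 106 CPM in C1483Y and 0, 187 and 241 CPM in L2427P. Its mRNA was at 95.6, 138 and 66.4 in WT, 111, 117 and 77.5 in C1483Y and 261, 199.7 and 0 CPM in L2427P. Cox5a had 1 library at 0 in each assay, both of L2427P, and its footprint range reached above its mRNA range. Cox5b had mRNA levels of 107, 330.0 and 44.4 CPM in WT, 495, 561 and 552 CPM in C1483Y and 369, 51.1 and 576 CPM in L2427P, so that all C1483Y libraries were above all WT libraries. Its footprints, at 1.30, 56.4 and 308 in WT, 164, 196 and 130.1 in C1483Y and 41.6, 98.4 and 260.0 CPM in L2427P, overlapped between constructs.

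Several complex IV subunits exist as a common form and a form typical of heart, skeletal muscle, lung or testis. The common forms were found and the others were almost absent from these neurons. Cox6a2, Cox7b2, Cox8b and Cox8c had no count in any library, where the sensitivity limit of 3 counts corresponds to at most 0.39 CPM in a footprint library and 0.161 CPM in an mRNA library. Cox4i2, the lung form of subunit 4, was counted in mRNA library L2427P 1 alone, at 24.1 CPM, and Cox6b2, the testis form, in mRNA library WT 2 alone, at 10.6 CPM. Cox7a1, the heart and muscle form, did not exceed 0.1 CPM. By contrast the common forms were counted in most libraries.

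Cox6a1 had footprints at 266, 231 and 75.5 CPM in WT, 0, 126 and 149 CPM in C1483Y and 78.9, 250.1 and 164 CPM in L2427P, and mRNA at 109, 263 and 175 in WT, 161, 80.8 and 0 in C1483Y and 271, 208 and 5.96 CPM in L2427P. Cox6b1, on the side that faces cytochrome c, had footprints at 21.7, 169.7 and 236 CPM in WT, 332, 186 and 347 CPM in C1483Y and 0.6, 143 and 314 CPM in L2427P, and mRNA at 152, 359 and 125 in WT, 427, 209 and 175 in C1483Y and 525, 254 and 353 CPM in L2427P. Both genes overlapped between assays and between constructs, with single libraries at or near 0. Cox7a2 had footprints at 1.69, 119 and 167 CPM in WT, 0.13, 149.9 and 67.3 CPM in C1483Y and 67.1, 247 and 182 CPM in L2427P, and mRNA at 297, 488 and 152 in WT, 788, 352 and 35.8 in C1483Y and 398, 424 and 889 CPM in L2427P. Cox7a2l had footprints at 1.04, 1.14 and 49.5 CPM in WT, 102, 0.28 and 78.5 CPM in C1483Y and 53.4, 3.51 and 19.1 CPM in L2427P, and mRNA at 499, 409 and 385 in WT, 323, 573 and 335 in C1483Y and 306, 171 and 0 CPM in L2427P. All footprint values of Cox7a2l lay below all its mRNA values except that of mRNA library L2427P 3, which was 0, and all L2427P mRNA values were below all WT values. Cox8a ranged from 0.53 to 226 CPM in footprints and from 0 to 316 CPM in mRNA.

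Cox7c, a small membrane subunit of complex IV, had mRNA in all libraries and almost no footprints. In mRNA it was at 183, 108 and 70.4 CPM in WT, 8.93, 119 and 117 CPM in C1483Y and 51.8, 186 and 264 CPM in L2427P. Its footprint level was 0.39, 0 and 0.18 in WT, 0.084, 0 and 0.18 in C1483Y and 0.37, 0 and 0 CPM in L2427P. Pooled over libraries, 20 footprint counts of 158493553 (0.126 CPM) stood against 38533 mRNA counts (107 CPM), an 847-fold difference between the assays. Cox7c did not pass the filter on low footprint counts. Its footprint counts per library were 0 to 6, around the floor of 3 counts, and the main tests leave it out. With no filter on low counts its log2 ratio averaged over constructs was -9.69 (SE 2.74; adjusted p = 0.0303 by edgeR's quasi-likelihood test). That value rests on these few footprint counts. With limits set after these values were seen, 1335 genes had at least 8 CPM in every mRNA library, 22 of them members, and 3 of the 1335 (0.225%) were at or below 0.5 CPM in all 8 footprint libraries; Cox7c was the only protein-coding gene among the 3, beside a lncRNA and a transcribed pseudogene. Small subunit genes have many processed copies in the mouse genome, and reads that were not aligned uniquely are not in the counts. Their part in the footprint value of Cox7c was not tested.

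**Figure D3:**
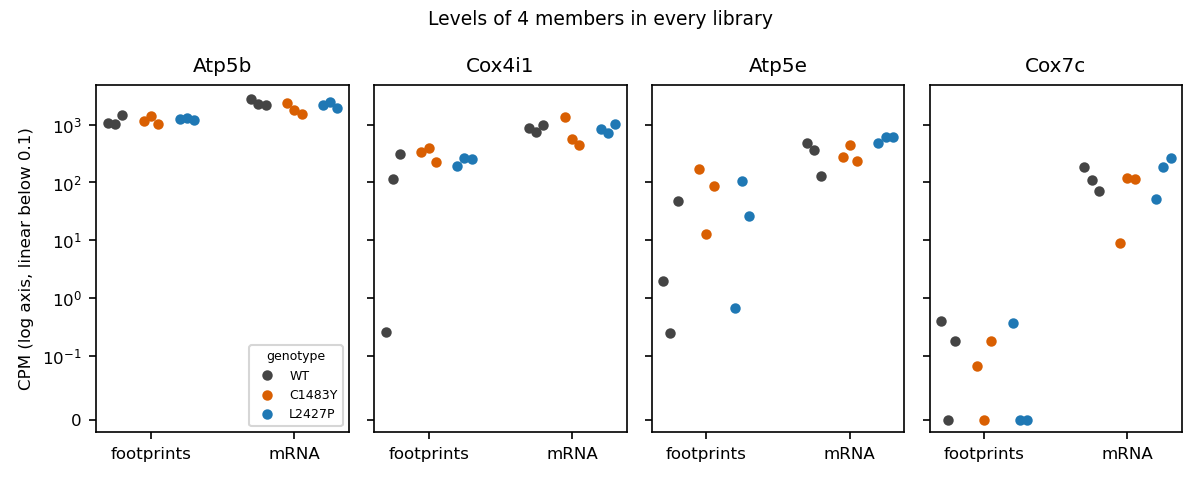
Levels of Atp5b, Cox4i1, Atp5e and Cox7c in every library in CPM (y axis, log scale, linear below 0.1) for footprints and mRNA (x axis), coloured by construct; each point is 1 library. Atp5b and Cox4i1 have all footprint points below all mRNA points, Atp5e footprints spread over a wide range, and Cox7c footprints lie at or below 0.39 CPM against 8.93 to 264 CPM in mRNA.

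Complex III also held genes with a clear gap and genes with none. Uqcrh, the hinge protein that helps cytochrome c1 meet cytochrome c, had footprint levels of 140.1, 1.71 and 96.7 CPM in WT, 196 and 9.74 CPM in 2 C1483Y libraries and 0.75, 75.8 and 101 CPM in L2427P. Its mRNA level was 615, 524 and 594 in WT, 468, 567 and 303 in C1483Y and 410.2, 541 and 308 CPM in L2427P, above all footprint libraries. Uqcr10 and Uqcr11, small membrane subunits, were also low in footprints. Uqcr10 had footprints at 0.39, 0.41 and 25.5 CPM in WT, 0.46 and 47.4 CPM in C1483Y and 80.1, 78.1 and 9.05 CPM in L2427P, and mRNA at 508, 206 and 94.3 in WT, 127, 172 and 509 in C1483Y and 207, 404 and 349 CPM in L2427P. Uqcr11 had footprints at 10.5, 39.5 and 31.1 CPM in WT, 0.42 and 64.7 CPM in C1483Y and 161, 37.1 and 111 CPM in L2427P, and mRNA at 702, 211 and 445 in WT, 259.9, 344 and 279 in C1483Y and 231, 299.5 and 0 CPM in L2427P. Uqcr10 was lower in every footprint library than in every mRNA library, and so would Uqcr11 be but for mRNA library L2427P 3, where it was 0. Uqcrb ranged from 0.65 to 281 CPM in footprints and from 29.01 to 177 CPM in mRNA. Uqcrq ranged from 0.45 to 155 CPM in footprints and from 0 to 218 CPM in mRNA. The core proteins Uqcrc1 and Uqcrc2 showed no such gap. Uqcrc1 had footprints at 276, 302 and 171 CPM in WT, 141 and 166 CPM in C1483Y and 173, 209 and 262 CPM in L2427P, and mRNA at 244, 267 and 352 in WT, 247, 74.5 and 149 in C1483Y and 426, 165 and 339 CPM in L2427P. Uqcrc2 had footprints at 403, 194 and 163 in WT, 711 and 136 in C1483Y and 392, 349 and 306 CPM in L2427P and mRNA at 343, 279 and 281 in WT, 213, 240.0 and 0 in C1483Y and 245, 217 and 391 CPM in L2427P. Both C1483Y footprint values of Uqcrc1 lay below all its WT footprint values, and all C1483Y mRNA values of Uqcrc2 below all its WT mRNA values.

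Uqcrfs1, the Rieske iron-sulfur protein that takes electrons from ubiquinol, had footprints at 20.7, 197 and 14.7 CPM in WT, 727 and 226 CPM in C1483Y and 197, 180.4 and 166 CPM in L2427P. Its mRNA stood at 183, 235 and 140.1 in WT, 71.9, 140.1 and 168 in C1483Y and 172, 175 and 122 CPM in L2427P. Its 2 C1483Y footprint values were above all WT and all L2427P values, by little in the second library, and the mRNA values overlapped. Of all genes tested, 6.61% had both C1483Y footprint values above all WT values, and 4.8% had them above all L2427P values. Cyc1, cytochrome c1, and its partner Cycs, the soluble carrier cytochrome c, were close to 0 in several footprint libraries. Cyc1 footprints stood at 0.39, 0.24 and 83.6 CPM in WT, 0.042 and 284 CPM in C1483Y and 0.075, 102 and 138 CPM in L2427P, and Cycs footprints at 0.52, 77.9 and 45.1 in WT, 0.084 and 47.2 in C1483Y and 0, 65.1 and 107 CPM in L2427P. Their mRNA levels were 113, 62.01 and 159 in WT, 242, 39.5 and 84.4 in C1483Y and 108, 0.86 and 346 CPM in L2427P for Cyc1, and 233, 49.8 and 27.4 in WT, 39.6, 46.2 and 101 in C1483Y and 102, 0 and 212 CPM in L2427P for Cycs. Both genes were below 1 CPM in footprint libraries WT 1, C1483Y 1 and L2427P 1, Cyc1 also in WT 2, and both overlapped between constructs.

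In complex II the assays overlapped for all 4 genes. Sdha, the flavoprotein that oxidises succinate, had footprints at 312, 23.4 and 219 CPM in WT, 0.084 and 219.9 CPM in C1483Y and 207, 159 and 357 CPM in L2427P, and mRNA at 24.2, 114 and 121 in WT, 128, 0.059 and 156 in C1483Y and 187, 100.5 and 0 CPM in L2427P. Sdhb, the iron-sulfur subunit, had footprints at 724, 17.96 and 59.5 in WT, 107 and 158 in C1483Y and 169, 152 and 200.1 CPM in L2427P and mRNA at 474, 256 and 364 in WT, 276, 406 and 225 in C1483Y and 464, 339.9 and 372 CPM in L2427P. The membrane anchors Sdhc and Sdhd ranged from 16.8 to 316 CPM and from 0 to 213 CPM in footprints, and from 44.5 to 298 CPM and from 0 to 171 CPM in mRNA. No construct stood apart from the others for any gene of complex II in either assay.

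The ratio of footprints to mRNA was tested for 39 of the 47 genes, in a model over 17 libraries, as the log2 difference between the assays averaged over the 3 constructs. The 8 genes left out were Cox7c and the 7 tissue forms Cox4i2, Cox6a2, Cox6b2, Cox7a1, Cox7b2, Cox8b and Cox8c. Cox4i1 had a log2 ratio of -1.71 (SE 0.49; adjusted p = 0.0198 by edgeR's quasi-likelihood test with Benjamini-Hochberg adjustment) and Atp5e of -3.08 (SE 0.95; adjusted p = 0.0451). These were the 2 genes of 39 past the threshold of 0.05, both lower in footprints, where 2.79% of all 8876 genes tested passed, 1.67% higher and 1.13% lower. Every footprint library lay below every mRNA library for Atp5b, Cox4i1, Uqcr10 and Uqcrh, 4 of 39 genes, as for 1.31% of all genes tested, and no member showed the opposite, as 1.12% of all genes did. At an unadjusted p under 0.05, 12 of 39 were lower and 0 higher, against 8.04% and 6.06% of all genes. The genes that came next in order of p, without passing, were Uqcrh (-2.38, SE 0.76; adjusted p = 0.057), Cox7a2l (-3.35, SE 1.09; adjusted p = 0.0674), Uqcr10 (-3.42, SE 1.26; adjusted p = 0.145) and Atp5c1 (-1.57, SE 0.59; adjusted p = 0.156). Atp5b had a small and precise ratio of -0.59 (SE 0.25; adjusted p = 0.239).

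The number of members past the threshold ranged from 0 to 7 when single libraries were left out, with 7 without mRNA library L2427P 3 (Atp5b, Atp5c1, Atp5e, Cox7a2l, Uqcr10, Uqcr11 and Uqcrh). The number over all genes moved too, from 188 to 382, and was 382 in that fit. The call for Cox4i1 was held in 12 of 17 fits that each left out 1 library, and was lost without footprint library C1483Y 1 and without mRNA libraries WT 3, C1483Y 1, L2427P 1 or L2427P 3. That for Atp5e was held in 4 of 17, without footprint libraries WT 1, WT 3 or L2427P 2 or mRNA library L2427P 3. Of the 10 other alternatives, 5 held the call for Cox4i1 and 5 that for Atp5e. That for Cox4i1 was lost with DESeq2's size factors, with DESeq2's Wald test, with no filter, with all libraries as deposited and without both sparse mRNA libraries. That for Atp5e was lost with the size factors, with no filter, with all libraries as deposited and with either replicate block. Over all 27 alternatives the log2 ratio of Cox4i1 ranged from -2.16 to -1.14 (adjusted p 0.0017 to 0.478) and that of Atp5e from -4.82 to -2.40 (adjusted p 0.00167 to 0.274).

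Across the set, 32 of 39 log2 ratios were negative, with a median of -0.67, where the median of all genes was -0.32. This direction depended on the scaling: with DESeq2's size factors in place of TMM, 20 ratios were positive and 19 negative, the median was 0.14 and that of all genes 0.20. Relative to all genes the members were thus lower by 0.35 with TMM and by 0.06 with size factors, and without footprint library C1483Y 2 they were higher by 1.76, since the median of all genes was then -2.67. Among all genes called, 59.7% were higher in footprints with TMM and 93.1% with size factors. By complex the median was -0.33 in complex II, -0.66 in complex III, -1.30 in complex IV and -0.74 in complex V with TMM. The 7 positive ratios were those of Atp5j (1.83, SE 1.46), Cox5a (1.502, SE 0.83), Atp5d (1.19, SE 1.21), Sdha (1.03, SE 1.12), Uqcrc2 (0.75, SE 0.68), Uqcrfs1 (0.49, SE 0.95) and Cox6a1 (0.02, SE 1.08), and none of them passed the threshold.

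**Figure D4:**
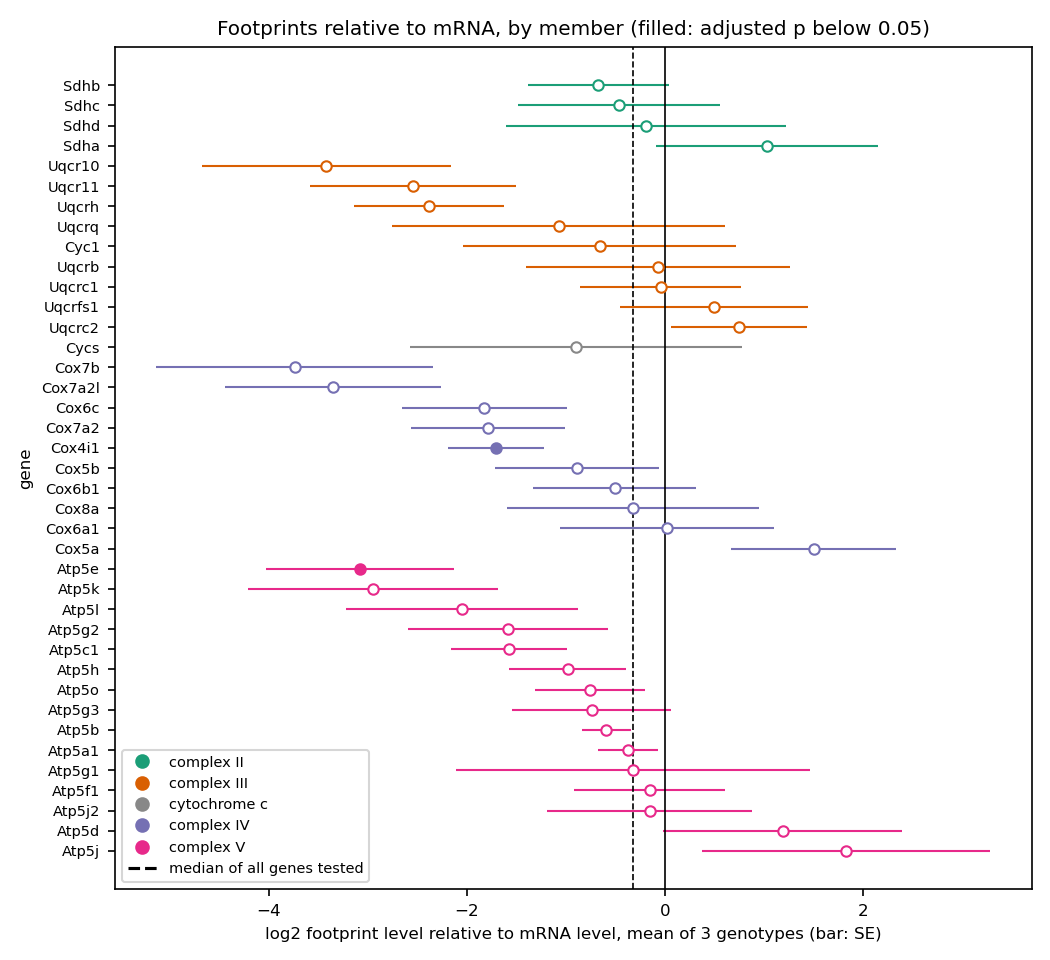
Log2 ratio of footprints to mRNA, averaged over the 3 constructs, for the 39 genes tested (y axis, ordered within each complex); bars are standard errors, filled points have an adjusted p below 0.05 and the dashed line is the median of all genes tested. Cox4i1 at -1.71 and Atp5e at -3.08 are filled, and 32 of 39 points lie left of 0 with TMM scaling, which 19 of 39 do with DESeq2's size factors.

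Within a single construct no member passed the threshold. The share of all genes that did was 0.665% in WT, 0.259% in C1483Y and 0.518% in L2427P. At an unadjusted p under 0.05, 8 members were lower in WT, 1 in C1483Y and 3 in L2427P, and 0 were higher, where 6.0%, 2.46% and 1.21% of all genes were lower. Cox4i1 had log2 ratios of -2.59 (SE 0.82) in WT, -1.01 (SE 0.89) in C1483Y and -1.52 (SE 0.79) in L2427P, and Atp5e of -4.30 (SE 1.61), -1.59 (SE 1.67) and -3.36 (SE 1.54). The medians over members were -0.81, -0.86 and -0.43 beside -0.37, -0.47 and 0.22 over all genes. In WT all 9 genes of complex III had a negative ratio, with a median of -1.98, and in C1483Y 3 of 9 did, with a median of 0.34. Both counts moved with the processing. In WT, 6 of 9 were negative under DESeq2's size factors, with a median of -0.88, and 6 of 9 without footprint library WT 3. In C1483Y, 5 of 9 were negative without footprint library C1483Y 1 (median -0.01), without mRNA library C1483Y 2 (median -0.07) and with a replicate block by library pair (median -0.39), so the sign of its median is not settled.

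The comparison between constructs asks whether either MTOR change altered the mRNA or the translation of these genes. No member passed the threshold in any of the 12 contrasts (each change against WT, their mean against WT, and L2427P against C1483Y, for mRNA, footprints and ratio), by edgeR's quasi-likelihood test. The tests against WT share the WT libraries. In mRNA 40 members were tested. The share of all 9558 genes past the threshold was 0.0% against WT in each case and 0.0105% between the changes. At an unadjusted p under 0.05, Cox5b alone was past that value, with a log2 difference of C1483Y from WT of 1.62 (SE 0.75; adjusted p = 1), as were 1.59% of all genes. No member was past it in L2427P against WT, in the mean of both changes or between them, where 2.42%, 2.24% and 3.72% of all genes were. L2427P had 0.65 (SE 0.74) for Cox5b. Cox6c, a small membrane subunit of complex IV, had the smallest p for the mean of both changes, with 1.05 (SE 0.60; adjusted p = 1), from mRNA levels of 359, 190.3 and 106 CPM in WT, 169, 691 and 503 CPM in C1483Y and 243, 667 and 933 CPM in L2427P. These levels overlapped. With DESeq2's Wald test no member was called in mRNA either.

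In footprints 39 members were tested, and 0.0% of 10315 genes passed in each contrast. Uqcrfs1 was the only member with an unadjusted p under 0.05 in C1483Y against WT (2.65, SE 1.28; adjusted p = 0.71), where 4.4% of all genes were past that value, and had 1.16 (SE 1.15) in L2427P. No member was past that value in L2427P against WT or in the mean of both changes, where 3.76% and 4.44% of all genes were. Cox7b, another small subunit of complex IV, had footprints at 17.5, 126 and 25.5 CPM in WT, 0.042, 0.37 and 23.1 CPM in C1483Y and 380.2, 32.1 and 56.3 CPM in L2427P. Its log2 difference of C1483Y from WT was -8.09 (SE 4.14; adjusted p = 0.71) and that of L2427P from C1483Y 9.53 (SE 4.40; adjusted p = 0.925), with 1.27% of all genes past an unadjusted p of 0.05 in the latter contrast. DESeq2's Wald test called both (adjusted p = 0.000536 and 3.04e-05). They rest on 2 C1483Y libraries at or near 0: the third, which could be read for this gene, stood at 23.1 CPM, within the WT range, and with it the difference from WT was -3.17 (SE 2.71; adjusted p = 1). Without footprint library C1483Y 2, a fit that takes the spread of the 1 remaining C1483Y library from the other groups, edgeR called 3 members in footprints in C1483Y against WT, Atp5h, Cox6a1 and Sdha, each at or near 0 in library C1483Y 1. In that fit 153 genes were called, 150 of them lower, and the median of all genes was -4.48. In the footprint libraries used for the tests, C1483Y lay above WT throughout for 5 of 39 (Atp5c1, Atp5d, Cox4i1, Uqcrfs1 and Uqcrq) and for 6.61% of all genes, and below it for 3 (Atp5o, Cox7b and Uqcrc1) and 4.93%. With the third C1483Y library counted as well, Cox4i1 and Cox7b overlapped with WT. L2427P was above or below WT for 0 of 39, beside 6.97% and 1.65% of all genes. It was above the 2 C1483Y libraries for 2 of 39 (Cox7b and Uqcrc1) and 13.9% of all genes. It was below them for 4 (Atp5j, Cox4i1, Uqcrfs1 and Uqcrq) and 4.8%, and Cox4i1 overlapped once the third C1483Y library was counted. In mRNA, C1483Y was above WT for 3 of 40 (Atp5g2, Atp5g3 and Cox5b) and 3.15% of genes and below it for 1 (Uqcrc2) and 4.67%, and L2427P was above WT for 1 (Atp5e) and 2.18% and below it for 1 (Cox7a2l) and 6.25%. For no member did all libraries of both changes lie above or below all WT libraries, as they did for 1.32% and 0.882% of all genes in footprints and for 0.241% and 1.4% in mRNA.

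The difference between constructs in the ratio of footprints to mRNA was tested for 39 members among 8876 genes, of which 0.0% passed in each contrast. Cox7b was again the only member with an unadjusted p under 0.05, in C1483Y against WT (-8.00, SE 3.57; adjusted p = 1) and in L2427P against C1483Y (9.55, SE 3.73; adjusted p = 1), where 3.76% and 4.18% of all genes were past that value. In L2427P against WT and in the mean of both changes, 4.22% and 3.61% of all genes were, and no member. The smallest p of L2427P against WT were those of Uqcr11 (3.23, SE 2.31) and Uqcr10 (2.73, SE 2.62), both small subunits of complex III, with an adjusted p of 1. For the 2 genes with a TOP-type start, the difference of C1483Y from WT was -1.36 (SE 2.46) for Atp5g2 and 3.33 (SE 2.39) for Uqcrfs1, and that of L2427P was -0.98 (SE 2.29) and 1.60 (SE 2.25).

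No gene of complex III passed, and the values below are point estimates. For C1483Y all 9 genes had a positive difference in ratio, with a median of 1.61 beside -0.13 over all genes. For L2427P 7 of 9 were positive, with a median of 1.13 beside 0.67. The count for C1483Y was 6 of 9 without footprint library C1483Y 1 and 6 of 9 without C1483Y 2, and for L2427P 4 of 9, with a median of -0.18, under DESeq2's size factors. The median for L2427P was below that of all genes without footprint library WT 3 (0.62 beside 1.59), without mRNA library L2427P 1 (1.02 beside 1.51) or L2427P 2 (1.07 beside 1.17), with no filter (1.01 beside 1.04) and with a replicate block by library pair (1.75 beside 2.66), and was 2.17 without footprint library WT 2. The summed footprint level of complex III was 840 ± 207 CPM over the 3 WT libraries (SD), 1558 ± 747 CPM over 2 C1483Y libraries and 1159 ± 51.1 CPM over the 3 of L2427P. Its summed mRNA level was 2374 ± 497, 1719 ± 81.4 and 2049 ± 74.9 CPM (SD, n = 3 each). Footprint totals of L2427P lay above those of WT in all libraries, at 1117 to 1216 CPM against 626 to 1040 CPM. The mRNA totals of C1483Y lay below those of WT, at 1634 to 1796 CPM against 1923 to 2908 CPM. Footprint totals of C1483Y, at 2085 and 1030 CPM in libraries 1 and 2, overlapped with WT, as did mRNA totals of L2427P. For complexes II, IV and V, the totals of either change overlapped with WT in both assays. Summed over all members, C1483Y footprints lay above WT, at 9052 and 7664 CPM against 5043 to 7254 CPM, and the other comparisons with WT overlapped. How often sums of other genes separate in this way was not tested. Complexes II, IV and V had median differences in ratio of -0.01, 0.03 and 0.43 for C1483Y and of -0.06, 0.08 and 0.52 for L2427P. The median standard error of a single gene was 2.39 in complex III and 2.11 in complex V for C1483Y, so differences of a few-fold in one gene were not detectable at this spread.

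**Figure D5:**
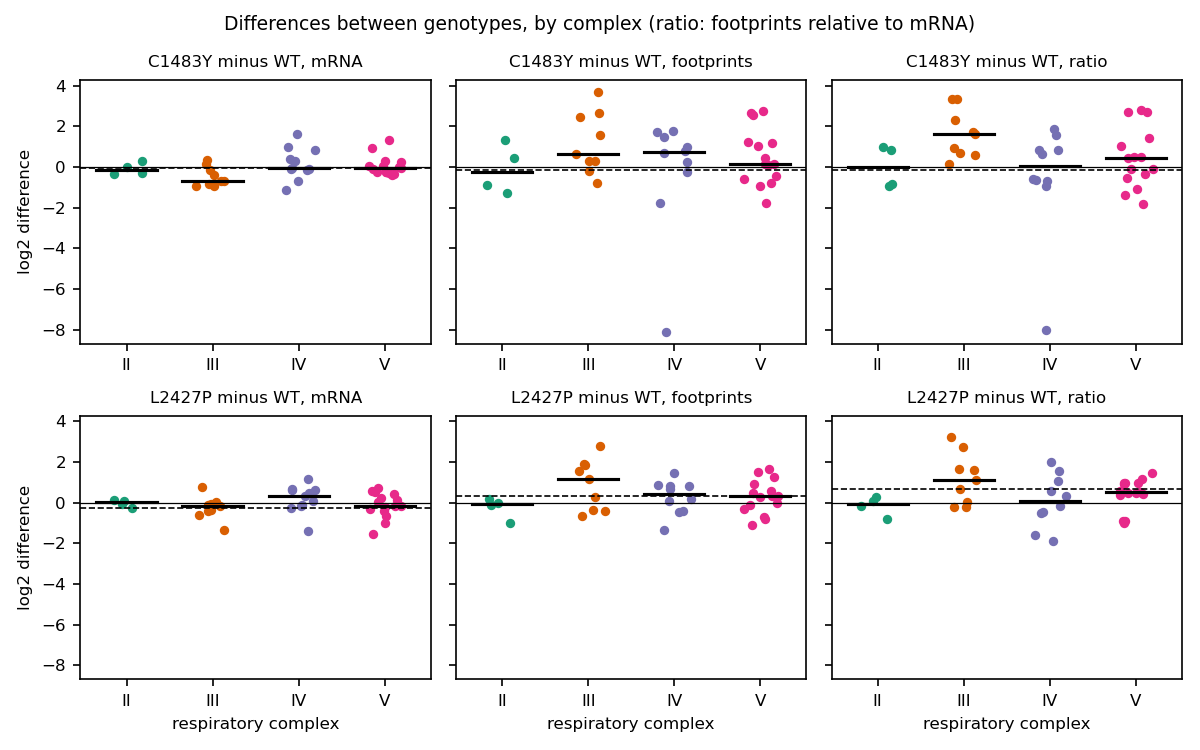
Log2 differences of C1483Y (top) and L2427P (bottom) from WT in mRNA, footprints and their ratio (columns) for the genes of each complex (x axis); points are genes, short lines medians per complex and the dashed line the median of all genes tested. The complex III genes all lie above 0 for the ratio in C1483Y, with a median of 1.61, and the lowest complex IV point for footprints and for the ratio in C1483Y is Cox7b.

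Of the genes that build or supply the complexes, in 4 lists, none passed the threshold in any contrast between constructs, by edgeR's quasi-likelihood test. For the ratio of footprints to mRNA averaged over constructs, 0 of 26 assembly factors tested passed, 6 were lower at an unadjusted p under 0.05, beside 8.04% of all genes, and the median was -2.09, beside -0.32 over all genes. The lowest p among them were those of Surf1 (-8.03, SE 3.00; adjusted p = 0.157) and Cox16 (-8.40, SE 3.17; adjusted p = 0.164), both needed for the assembly of complex IV. Of 15 genes of the tricarboxylic acid cycle and pyruvate dehydrogenase, 0 passed, 1 was higher at an unadjusted p under 0.05, beside 6.06% of all genes, and the median was -0.12. Of 8 carriers and porins of the mitochondrial membranes, 0 passed, 0 were past the unadjusted value and the median was -0.07. Of 9 regulators of mitochondrial biogenesis 0 passed and the median was 1.60. At an unadjusted p under 0.05, 3 were higher, beside 6.06% of all genes, and 1 was lower, beside 8.04%. With 7 projection neuron markers measured in the same fit, 3 passed, all higher in footprints: Tubb3 (0.79, SE 0.16; adjusted p = 9.3e-05), Tbr1 (2.63, SE 0.65; adjusted p = 0.00304) and Dcx (1.16, SE 0.33; adjusted p = 0.0167). Of all genes, 1.67% passed as higher, with TMM scaling, on which the direction of calls depended.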

How the data were processed

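Ribosome footprints and heat-fragmented mRNA were sequenced in 18 libraries, 3 for each of 6 combinations of assay and MTOR construct. The authors deposited counts of reads per gene for 17 libraries, made with Bowtie 1.1.2, TopHat2 2.1.1 and HTSeq on mm10, per the submitters' processing notes. No strand setting or annotation is named in the sources used here. The authors deposited the third C1483Y footprint library as values of which 165 are not whole; these were taken as estimated counts and rounded, and the submitters' processing notes name the same tools for it. In it 99.2% of values are multiples of 4, and in the third WT footprint library 100% are multiples of 3. The values of the third C1483Y footprint library are offset against the gene names by 0 rows at the Atp5 and Cox genes, -1 at Cyc1 and Cycs, -52 at the Sdh and -55 at the Uqcr genes, found by comparing levels in windows of 300 rows with the other footprint libraries. Rows that name no gene (5 summary rows) and 27 names turned into dates were left out. Reads not aligned uniquely were 49.9% to 77.5% of the total in mRNA libraries. In the footprint libraries used for the tests they were 21.9% to 29.5%, with no value for C1483Y 1. The part of this difference between the assays in the ratios was not tested.

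Tests used edgeR 4.0.16 in R 4.3.3 (limma 3.58.1), with TMM scaling, filterByExpr at a minimum count of 10, the robust quasi-likelihood fit and Benjamini-Hochberg adjustment over all genes tested, with a threshold of 0.05. The mRNA fit used 9 libraries, the footprint fit 8 and the ratio fit 17. A standard error is the log2 difference divided by the square root of F. DESeq2 1.42.0 was an alternative. The steps were run on simulated counts with far less spread than these libraries have and without their missing genes. That run therefore cannot show how the tests perform on these data. The floor of 3 counts covers counting error only, whereas the standard errors also include the spread between libraries. The members and lists were chosen with earlier results of these data known. One marker gene of the lists is not reported here and stayed out of their sums. Genes given library by library are the anchors of each complex, the most abundant member per complex and assay, the 2 members with the smallest p per contrast, those past the threshold and the tissue forms; others, such as Cox7c, were chosen after their values were seen. Alternatives were other scaling, DESeq2, no filter, a replicate block, other treatment of the third libraries and leaving out libraries.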

Additional observations from a re-analysis of the deposited data

How the results depend on the processing

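Counts of genes past the threshold depended on the tool and on single libraries, and the cause was not tested. The ratios of Cox4i1 and Atp5e were negative in all 27 alternatives, but medians over members changed sign: that of the ratio from -0.67 to 0.14 with DESeq2's size factors, that of complex III in L2427P against WT from 1.13 to -0.18 with the same, and that of complex III in C1483Y from 0.34 to -0.39 with a replicate block by library pair. For C1483Y against WT, L2427P against WT, their mean against WT and L2427P against C1483Y, in this order, DESeq2's Wald test called 172, 288, 269 and 502 genes in mRNA, 801, 294, 706 and 504 in footprints and 805, 541, 478 and 875 in the ratio, with 1 member each for C1483Y against WT and for L2427P against C1483Y in footprints and in the ratio. For footprints against mRNA it called 773 genes in WT (2 members), 1083 in C1483Y (1 member), 367 in L2427P and 1617 for the mean of constructs (7 members). Correlations of same-numbered libraries, as deviations from their group means, lay between -0.0865 and 0.0846 and gave no sign of pairing. With so few libraries per group and so wide a spread they cannot exclude it. With the replicate block, edgeR called 3 genes in mRNA for L2427P against WT and 2 for L2427P against C1483Y, 1 gene in footprints for each of these contrasts, 1 in the ratio for L2427P against C1483Y, and 1 member for footprints against mRNA. With a replicate block by library pair, 1 member and 158 genes were called for the latter. Without both mRNA libraries with the most abundant genes at 0, 1 gene was called in mRNA for L2427P and for the mean against WT, and in the ratio 2 for C1483Y, 1 for L2427P and 1 for their mean; for footprints against mRNA 171 genes were called in WT (3 members), 71 in C1483Y, 80 in L2427P and 397 for the mean (7 members). With DESeq2's size factors, 0 genes were called in mRNA and 2 in the ratio for L2427P against C1483Y, and 38 in WT, 3 in L2427P and 375 for the mean (0 members) for footprints against mRNA. With no filter, 2 genes were called in footprints and 2 in the ratio for L2427P against C1483Y, 1 in the ratio for L2427P and 1 for the mean against WT, and 33 in WT and 25 in L2427P for footprints against mRNA (1 member, Cox7c, for the mean). With the third WT footprint library divided by 3, or TMM within each assay, 1 gene was called in the ratio for L2427P against C1483Y, and the latter called 5 members for footprints against mRNA. With all libraries as deposited, footprints against mRNA gave 1 gene in WT, 2 in C1483Y, 0 in L2427P and 36 for the mean (0 members), and within the first 5400 rows 6, 2, 9 and 46.

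Leaving out 1 library at a time, members called ranged from 0 to 3 in footprints for C1483Y against WT, for the mean against WT and for L2427P against C1483Y, from 0 to 1 in the ratio for C1483Y against WT and for L2427P against C1483Y, and from 0 to 3 in WT, 0 to 2 in C1483Y and 0 to 7 for the mean for footprints against mRNA. All genes called ranged, in the order of contrasts above, over 0 to 1, 0 to 3, 0 to 2 and 0 to 3 in mRNA, 0 to 153, 0 to 1, 0 to 152 and 0 to 125 in footprints, and 0 to 31, 0 to 4, 0 to 3 and 0 to 27 in the ratio. For footprints against mRNA they ranged over 34 to 154 in WT, 8 to 84 in C1483Y, 28 to 73 in L2427P and 188 to 382 for the mean.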
